A study of Mus musculus with 5 samples.

Results

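Small RNAs listed as piRNAs were followed across 5 mouse libraries, and the entries described here are those that took most of their scaled reads from spermatogonia. Reads of each entry were scaled to the total of the library's piRNA table, as reads per 1000000 (RPM). The value of spermatogonia was then set against the sum of 4 values: primordial germ cells, spermatogonia, spermatozoa, and the mean of oocyte and zygote. Entries with at least 100 reads over the 5 libraries, no mitochondrial mark in the name and a spermatogonial value of at least 60% of that sum were taken. This gave 3032 entries of 11444 that met the first 2 conditions and of 196406 listed in all. The choice rests on the reads of all 5 libraries, so levels and ratios to spermatogonia are given as a description, with no test.

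The libraries were of primordial germ cells from gonads of 13.5-day male fetuses (CD-1), spermatogonia from testes of 8.5-day-old pups (CD-1), spermatozoa of mature CD-1 males from cauda epididymis and vas deferens, metaphase II oocytes of C57BL/6 females aged 4 to 5 weeks, and zygotes from such females mated with DBA/6J males, collected 15 to 18 hours after fertilization. Primordial germ cells were enriched with anti-CD15 magnetic beads. Spermatogonia were recovered from the cells left in suspension after somatic cells had settled and adhered for 3 to 4 hours, and the submitters checked them for Stra8 transcript and lack of Fn1. Spermatozoa were purified on Percoll with an osmotic shock against other cells. The egg libraries pooled 15210 oocytes and 15416 zygotes from superovulated females, with the zona removed. No mutant or drug-treated group was included. There was 1 library per cell type, so preparation and cell type cannot be told apart. The strain was CD-1 in the first 3 and C57BL/6 in oocytes, while zygotes had C57BL/6 mothers and DBA/6J fathers. Between the first 3 and the egg libraries, and between oocytes and zygotes, strain too cannot be told apart from cell type. No difference between libraries has a replicate check. In such bulk libraries fewer cells of a type and less RNA per cell cannot be told apart either.

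piRNAs are small RNAs bound by PIWI proteins of the germ line and cut from long single-stranded precursors, and they are best known for guiding the silencing of transposons. In the fetal testis of the mouse they are loaded onto MILI and MIWI2 and direct methylation of transposon DNA. After birth, spermatogonia are known for pre-pachytene piRNAs, which come from repeats and from mRNAs, while meiotic cells make a much larger pool from dedicated clusters. Whether reads on an entry are true piRNAs could not be tested, since sequences, lengths and genome positions of the entries were not analysed here.

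The piRNA tables held between 5820204 reads (primordial germ cells) and 18212803 (spermatozoa), with 7150813 in spermatogonia. The limit that a count of 0 allows (3 counts) was 0.420 RPM there, 0.515 in primordial germ cells, 0.165 in spermatozoa, 0.207 in oocytes and 0.314 in zygotes. Brackets give exact 95% intervals for counting error only. The label of the spermatogonia library was checked with miRNA lists, scaled to the miRNA table. The 4 miRNAs listed for undifferentiated spermatogonia summed to 10064 RPM in spermatogonia against 12868 in primordial germ cells and 21519 to 54756 in the other libraries, so this list did not set the library apart. Lists of other testis cells were high in it: the smooth muscle and peritubular pair (miR-143-3p, miR-145a-5p) summed to 233042 RPM against 9259 in primordial germ cells and 230738 in spermatozoa, the gonadal soma pair (miR-202 arms) to 14981 against 1734, and the endothelial pair (miR-126a arms) to 9053 against 1051. None of the markers of these lists was at 0 in spermatogonia. The erythroid, leukocyte, epithelial and neuronal lists summed to 1302, 214, 438 and 134 RPM in spermatogonia and to 100.5, 537, 485 and 3717 in primordial germ cells. The part of these lists in the values below was not tested. The list of meiotic and later germ cells summed to 917 RPM in spermatogonia and 231417 in spermatozoa, and the pluripotent list to 1178 in spermatogonia and 25338 in primordial germ cells.

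The 3032 entries held 22.55% [22.52 to 22.58] of all piRNA reads in spermatogonia. The same entries held 3.39% [3.37 to 3.40] in primordial germ cells, 0.884% [0.880 to 0.888] in spermatozoa, 1.81% [1.806 to 1.819] in oocytes and 2.21% [2.20 to 2.21] in zygotes. Spermatogonia were thus followed by the fetal germ cells and, at some distance, by the egg libraries, with spermatozoa last. Per entry the median was 21.6 RPM in spermatogonia (quartiles 12.8 and 47.6), 4.12 in primordial germ cells, 0.683 in spermatozoa, 1.64 in oocytes and 1.38 in zygotes. Over all 11444 entries the medians were 10.4, 5.09, 1.29, 2.21 and 2.02 RPM in the same order. A typical piRNA entry with 100 reads or more had therefore a higher RPM in spermatogonia than in each other library before any choice of members. A union of 11 entries, the 5 most abundant of each library, held 57.5% of the piRNA reads in spermatozoa and 24.2% to 30.7% in the other 4 libraries.

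**Figure D1:**
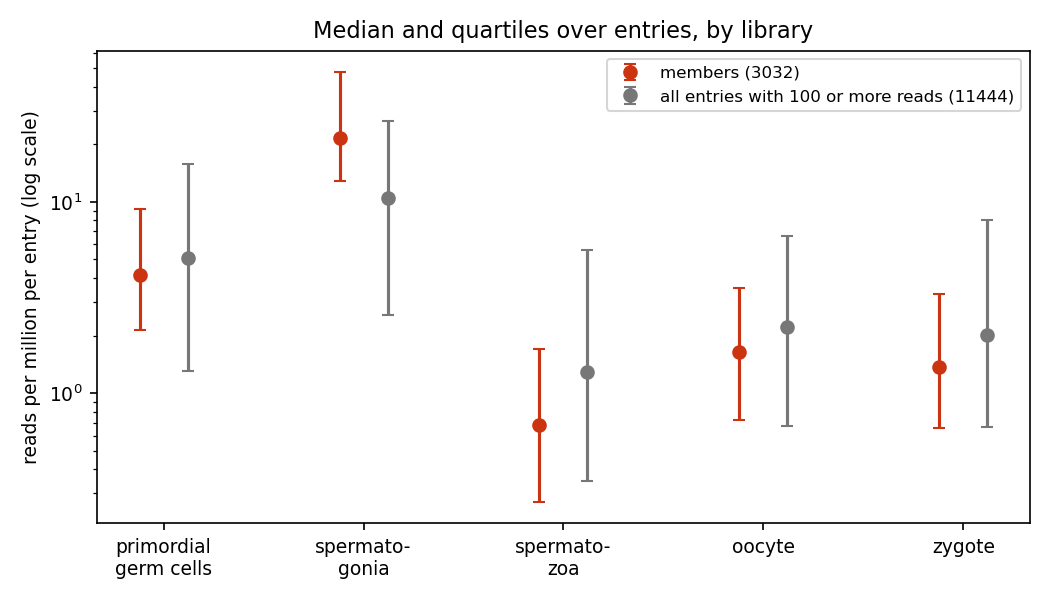
Level per entry in each library, in RPM of the piRNA table on a log scale, for the 3032 members (red) and all 11444 entries with 100 or more reads (grey). Points are medians and bars run from the lower to the upper quartile over entries, with 1 library per cell type. Members lie above all entries in spermatogonia, with a median of 21.6 against 10.4, and below them in the other 4 libraries.

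Log2 ratios used a pseudocount of 0.5 reads. The median log2 ratio of members was 2.36 to primordial germ cells (quartiles 1.69 and 3.29), 5.18 to spermatozoa, 3.73 to oocytes and 4.02 to zygotes. With entries at 0 reads set to the bound of 3 counts the medians were 2.38, 5.24, 3.76 and 4.08. By these table totals the closest library was that of primordial germ cells. With DESeq2 factors it was that of oocytes, with a median of 1.26 against 1.41 to primordial germ cells, and with TMM factors both medians were 1.95. By table totals 1957 members were at least 4-fold higher in spermatogonia than there, where 27.4% of all entries were. The corresponding counts were 2981 against spermatozoa (61.3% of all entries), 2864 against oocytes (55.4%) and 2794 against zygotes (56.8%). These counts follow from the rule and are given only for their size. The 4 ratios share the spermatogonial library.

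The spermatogonial share of members had a median of 74.4% and reached from the threshold to 99.99%. Between 60% and 70% lay 1129 members, between 70% and 80% 944, between 80% and 90% 690, between 90% and 95% 190, and from 95% on 79. The distribution over all 11444 entries had no gap at the threshold: 1138 entries lay between 50% and 60%. Counting error of the share was 2.68 percentage points in the median member (SE from the Poisson error of the reads). The share less 1.96 SE stayed at or above 60% for 2328 members (76.8%), and 736 of the 8412 entries outside the set reached 60% when 1.96 SE was added. Just inside, among entries with at least 1000 reads, were mmur000436235 at 60.03%, PIR59234 at 60.05% and PIR51753 at 60.07%. Just outside were PIR46403 at 59.87%, PIR41907 at 59.72% and PIR18870 at 59.57%. The minimum of 100 reads was met through spermatogonia alone by many: 1763 members (58.1%) had under 100 reads over the other 4 libraries together, as had 2779 of all 11444 entries (24.3%).

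**Figure D2:**
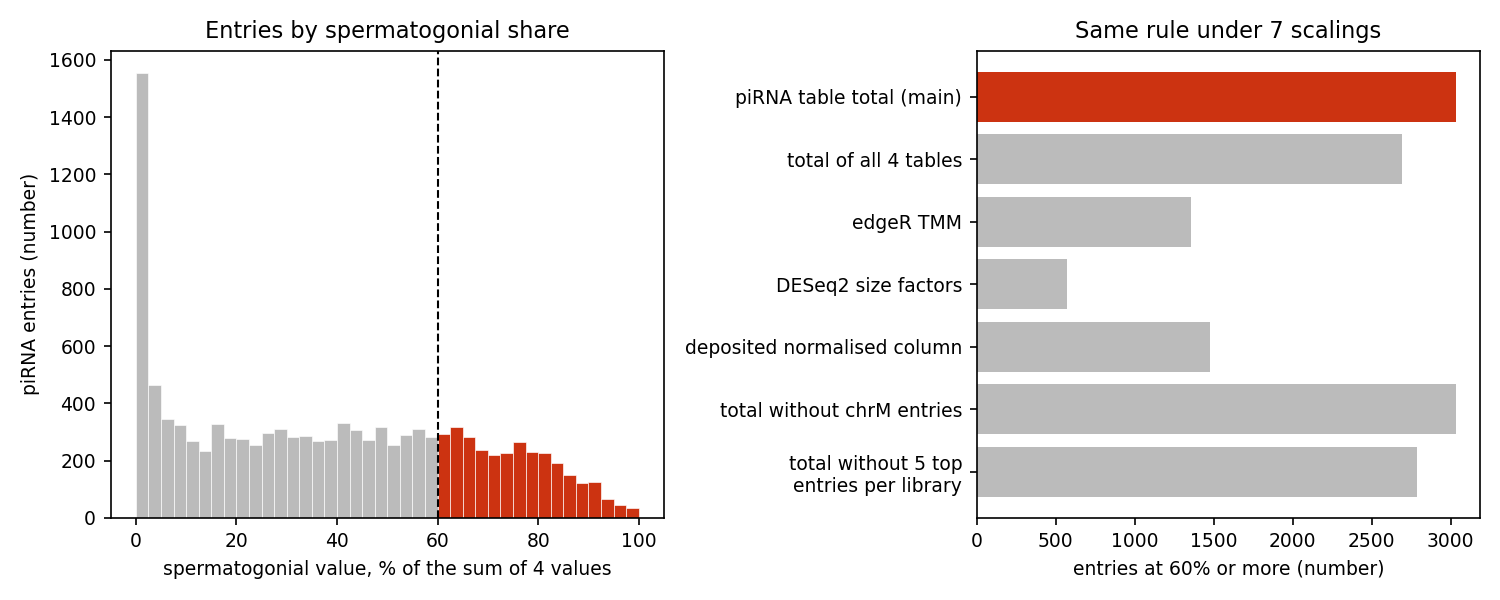
Left, number of piRNA entries (of 11444) by the spermatogonial value as a percentage of the sum of 4 values, in steps of 2.5 points, with the threshold of 60% dashed and members in red. Right, number of entries at 60% or more when the reads are scaled in 7 ways, from 3032 with the piRNA table total (red) to 570 with DESeq2 size factors.

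How many entries were led by spermatogonia depended on the scaling. With edgeR TMM factors 1353 of the 3032 stayed at 60% or more, with the factors of the deposited normalised column 1475, and with DESeq2 size factors 570. The scaling moved all entries alike: the median log2 ratio over all 11444 was 3.02 to spermatozoa and 0.69 to primordial germ cells by table totals, 0.91 and 0.28 by TMM factors, and -0.18 and -0.26 by DESeq2 factors. With reads scaled to all 4 tables of a library, 2595 of the 3032 stayed.

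The 570 entries that met 60% under each of the 7 scalings held 8.70% of spermatogonial piRNA reads. They held 0.612% in primordial germ cells, 0.0589% in spermatozoa, 0.241% in oocytes and 0.334% in zygotes. Their median level was 34.0 RPM in spermatogonia and 3.27, 0.308, 0.630 and 0.733 RPM in primordial germ cells, spermatozoa, oocyte and zygote. Compared by the factors of DESeq2, the scaling least favourable to spermatogonia, their median log2 ratios were 2.60, 3.88, 3.21 and 2.83 in the same order. The 570 are the same entries that met 60% with DESeq2 factors. These ratios therefore follow from the choice and are given only for their size. Shares of the 570 under the main scaling reached from 76.0% to 99.99%, and 469 of them (82.3%) had primordial germ cells as the next library. DESeq2 factors shifted the log2 ratio to primordial germ cells by -0.95, and those to spermatozoa, oocytes and zygotes by -3.20, -2.47 and -2.63. The choice by these factors thus favours primordial germ cells as the next library by table totals. This count too is given only for its size.

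The most abundant piRNA entries of spermatogonia were not among the members. Of the 8 entries with the most spermatogonial reads, which held 24.9% of the table, none was a member. Several of the 8 had close reads in spermatogonia. PIR64875 and PIR64874 had 260249 and 260062, and mmur001134775 to mmur001134778 had 69878 to 73136. PIR64428 led with 864459 reads in spermatogonia, or 120890 RPM, but it had 106562 RPM in primordial germ cells and 363421 RPM in spermatozoa, and its spermatogonial share was 19.7%. The first member, mmur001054651, came at rank 23, and 5 members were among the first 50 and 193 among the first 500. Members made up 26.5% of the 11444 entries. The rule used these reads, so the counts are given only for their size.

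Among members the reads were spread widely: the 5 most abundant held 7.56% of member reads in spermatogonia, the 12 most abundant 14.4% and the 100 most abundant 45.4%. The first, mmur001054651, had 4364 RPM in spermatogonia, 369 in primordial germ cells, 19.2 in spermatozoa, 220.4 in oocytes and 294 in zygotes. It was highest in spermatogonia but abundant in the fetal and egg libraries too, with a ratio of 11.8 [11.3 to 12.4] to primordial germ cells and 227 [204 to 253] to spermatozoa. PIR67269 had 3939 RPM in spermatogonia, 215 in primordial germ cells, 25.3 in spermatozoa, 624 in oocytes and 1402 in zygotes. This entry was well represented in the egg libraries, and its ratio to zygotes was only 2.81 [2.75 to 2.87]. PIR77351 had 3341 RPM in spermatogonia, 42.4 in primordial germ cells, 27.7 in spermatozoa, 119 in oocytes and 233 in zygotes. Here the fetal germ cells were among the low libraries, with a ratio of 78.8 [69.4 to 89.6].

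PIR54150 had 2629 RPM in spermatogonia, 1231 in primordial germ cells, 132 in spermatozoa, 301 in oocytes and 343 in zygotes. It lay closest to the threshold of the 12 most abundant members, at 60.9%, and its ratio to primordial germ cells was 2.14 [2.08 to 2.20]. mmur001059680 had 2015 RPM in spermatogonia, 69.99 in primordial germ cells, 4.48 in spermatozoa, 18.4 in oocytes and 13.1 in zygotes. With a share of 95.7% it was the most spermatogonial of these 12, and under DESeq2 factors it still had 88.3%. The others of the 12 were mmur000893566, mmur001054649 and mmur000917385, with shares of 90.9% to 91.1%, and mmur000923893 to mmur000923896, with shares of 71.5% to 75.3%. Under the TMM, DESeq2 and deposited factors 6 of the 12 stayed at 60% or more. PIR67269, PIR54150 and the 4 mmur000923 entries did not.

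**Figure D3:**
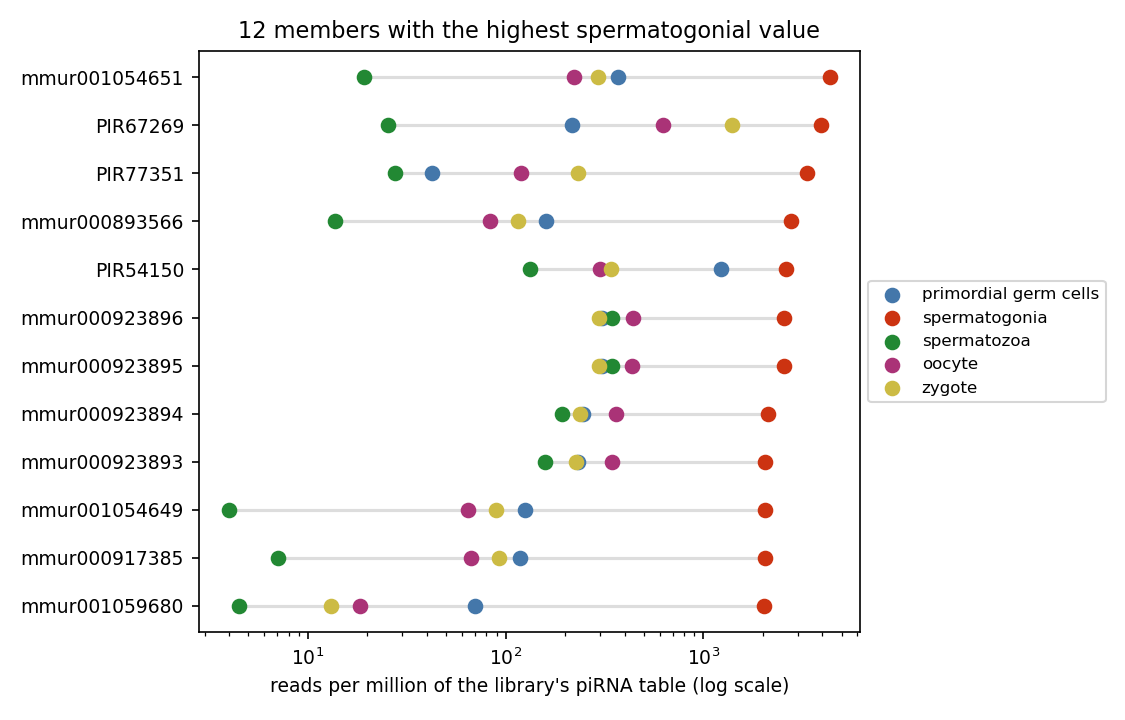
Levels of the 12 members with the highest spermatogonial value, in RPM of each library's piRNA table on a log scale, with 1 point per library and a line from the lowest to the highest point. The spermatogonial point lies between 2015 and 4364 RPM in each entry, and the order of the other 4 libraries differs between entries.

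The library next to spermatogonia divided the members. It was that of primordial germ cells for 2327 (76.7%), the mean of oocyte and zygote for 517 (17.1%) and spermatozoa for 188 (6.20%). The next library was not counted over all 11444 entries, so these counts are given only for their size. Over all those entries the medians were 5.09 RPM in primordial germ cells, 1.29 in spermatozoa, 2.21 in oocytes and 2.02 in zygotes. By spermatogonial reads the egg group weighed more, with 32.2% of member reads against 61.6% and 6.20%. In the primordial germ cell group the median was 4.92 RPM in primordial germ cells against 1.47 in oocytes and 0.578 in spermatozoa. In the egg group the median was 4.45 RPM in zygotes and 3.04 in oocytes against 1.58 in primordial germ cells. This order too moved with the scaling: with the same 3032 members, primordial germ cells came next for 2128 with totals that leave out the most abundant entries, for 1668 with all 4 tables, for 1360 with TMM factors and for 1057 with DESeq2 factors.

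Single entries showed these patterns in full. PIR202658 had 1435 RPM in spermatogonia, 372 in primordial germ cells, 1.61 in spermatozoa, 1.52 in oocytes and 1.88 in zygotes. Its RPM was thus high in the libraries of spermatogonia and primordial germ cells and low in the others. PIR73809 had 1113 RPM in spermatogonia, 111 in primordial germ cells, 3.63 in spermatozoa, 390 in oocytes and 815 in zygotes. Here the egg libraries came next, primordial germ cells after them and spermatozoa last. PIR32037, the most abundant member with spermatozoa next, had 1748 RPM in spermatogonia, 240 in primordial germ cells, 354 in spermatozoa, 124 in oocytes and 119 in zygotes. In it all 4 other libraries lay well below spermatogonia, with spermatozoa the highest of them. PIR202658 and PIR73809 were picked after their values were seen.

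Values above 0 in each of the 5 libraries, fractions of a read included, were listed for 2845 members (93.8%) and for 80.8% of all 11444 entries. With at least 1 read asked for in each library it was 2723 members (89.8%) and 76.2% of all entries. None of the members was at 0 in all other libraries. Entries at 0 numbered 69 in primordial germ cells, 61 in spermatozoa, 95 in oocytes and 56 in zygotes. In spermatozoa, oocyte and zygote alike, 101 members had at most 3 reads, and 14 had at most 3 in each of the 4 other libraries. The rest of those 101 had more than 3 reads in primordial germ cells. These counts at 0 or at most 3 reads were not made over all entries, and the rule itself favours low reads outside spermatogonia. They are given only for their size.

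The highest shares among entries with at least 1000 reads belonged to PIR213213 (99.6%), mmur001229210 (98.5%), PIR81056 (98.4%), PIR11244 (97.7%) and PIR220780 (96.6%). PIR213213 had 1620 reads in spermatogonia, 4 in primordial germ cells, none in spermatozoa or the oocyte and 3 in zygotes. By table totals it was 330-fold [128 to 1211] above primordial germ cells in RPM. The exact lower limit of its ratio to spermatozoa, for counting error only, was 1117. mmur001229210 had 6504 reads in spermatogonia, 78.3 in primordial germ cells, 0.81 in spermatozoa, none in oocytes and 2.29 in zygotes. Its ratio to primordial germ cells by table totals was 67.6 [54.3 to 86.0]. For oocytes the exact lower limit of the ratio was 3577. PIR40160, with 7628 reads in spermatogonia, 261 in primordial germ cells and 11 to 17 in the other 3, had a share of 95.8% and kept 91.4% under DESeq2 factors. It was not among the entries named by rule. mmur001054669, picked after its values were seen, had 351 reads in spermatogonia and 0.06 over the other 4 libraries.

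Names of the entries are of 2 kinds, mmur and PIR, each with a number, and the rule did not use them. Of the 3032 members 2366 (78.0%) were mmur and 666 (22.0%) PIR, while of all 11444 entries 59.6% were mmur. Put the other way, 34.7% of the 6818 mmur entries and 14.4% of the 4626 PIR entries were members. In sets chosen by the same rule for other libraries, mmur names made up 77.8% of 990 entries led by primordial germ cells, 17.3% of 1206 led by spermatozoa and 4.83% of 1739 led by oocyte and zygote. By table totals, members were thus close in this respect to the primordial germ cell set and unlike the other 2. No test was made, since entries share reads and are not independent. The mmur share of members was 57.3% to 79.9% over the alternatives to the rule, with 67.5% by DESeq2 factors and 68.7% at a minimum of 500 reads. The other sets were not described under these alternatives. The kinds differed within the set as well: primordial germ cells came next for 86.0% of mmur and 44.0% of PIR members, and the egg libraries for 9.64% and 43.4%. The next library was not counted by kind over all entries. PIR names made up 14.3% of members with shares of 60% to 70% and 58.2% of those from 95% on.

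Many members followed each other in number. They formed 1719 runs of consecutive names, of which 1134 were single entries, and 1898 members (62.6%) lay in runs of at least 2. In the primordial germ cell set the figure was 64.1%, in the spermatozoa set 24.4%, in the oocyte and zygote set 12.9% and over all entries 56.2%. In the same order mmur names made up 77.8%, 17.3%, 4.83% and 59.6%, against 78.0% of members. The part of name kind in these figures was not tested. Runs were formed within each set, so the figures also depend on how many entries a set had. Numbers that follow each other do not by themselves show that entries are neighbours in the genome. The 6 runs with the most spermatogonial reads held 20.8% of member reads on 49 entries. They were mmur001054639 to mmur001054654, mmur000923889 to mmur000923896, mmur000893558 to mmur000893567, mmur000923914 to mmur000923925, PIR67269 alone, and PIR25195 with PIR25196.

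The longest of these, mmur001054639 to mmur001054654, had 16 entries, all members because runs were formed among members only. It summed to 15213 RPM in spermatogonia, 977 in primordial germ cells, 37.4 in spermatozoa, 639 in oocytes and 899.7 in zygotes. Within it the level rose and fell in steps: 714 and 1446 RPM at mmur001054640 and mmur001054641, 67.3 to 79.6 RPM at the next 4, 877 to 2054 RPM at the following 5, 4364 at mmur001054651 and 67.4 at mmur001054652. The egg libraries had these steps too, with 65.3 RPM (oocytes) and 107 (zygotes) at mmur001054641 and 3.33 and 2.39 at mmur001054642. Spermatozoa did not rise at mmur001054641 and stood there at 2.46 reads, as at the 2 entries before it.

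**Figure D4:**
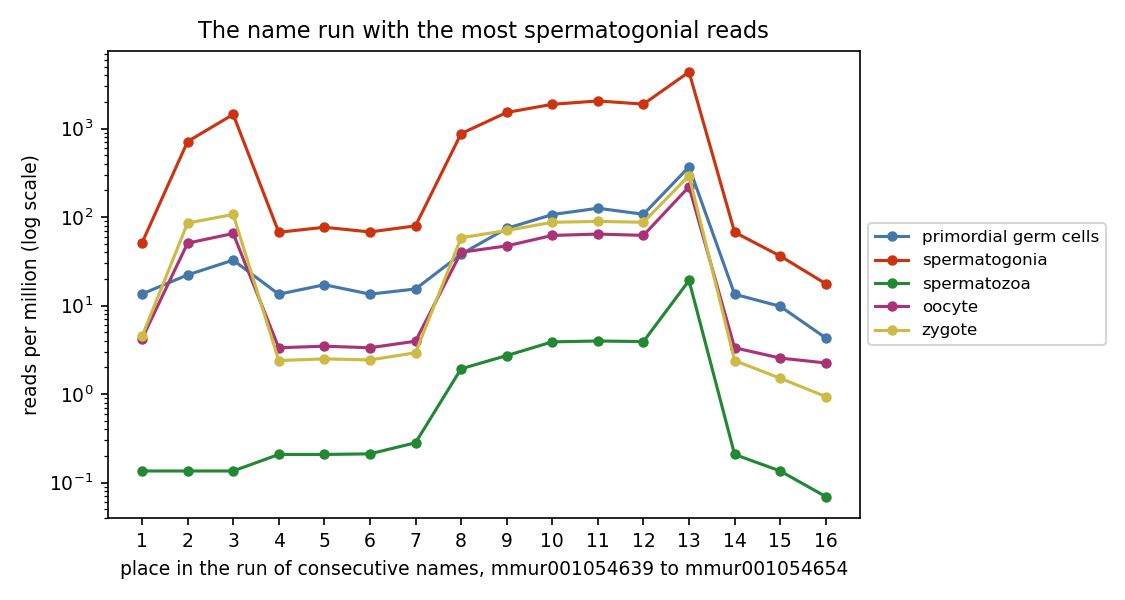
RPM (log scale) of the 16 members mmur001054639 to mmur001054654, in the order of their numbers, with 1 line per library. Spermatogonia lie highest at each place, with a first peak at place 3 (1446 RPM) and a higher one at place 13 (4364 RPM), and spermatozoa lie lowest.

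The run mmur000893558 to mmur000893567 had 10 entries and matched the first one in part. It summed to 5842 RPM in spermatogonia, 378 in primordial germ cells, 25.8 in spermatozoa, 198.7 in oocytes and 270.2 in zygotes. From mmur000893560 to mmur000893562 the reads grew by 4.06 in spermatogonia, 0.23 in primordial germ cells, 0.06 in spermatozoa, 0 in oocytes and 0.36 in zygotes. From mmur001054642 to mmur001054644, in the other run, they grew by 4.06, 0.24, 0.06, 0 and 0.36. These steps were equal or differed by 0.01 reads. From mmur000893560 to mmur000893561 the growth in spermatogonia was 99.86 reads, against 66.86 from mmur001054642 to mmur001054643, while it was 21.98 and 21.99 in primordial germ cells. From mmur000893564 to mmur000893565 it was 4964 in spermatogonia and 34.7 in spermatozoa, against 4605 and 14.4 from mmur001054646 to mmur001054647. The early peak of the first run had no counterpart, since mmur000893558 and mmur000893559 stood at 21.3 and 42.8 RPM. These pairs were picked after their values were seen, and the 2 runs were not treated as independent. mmur000917385, at 2042 RPM in spermatogonia and 118 in primordial germ cells, was close to mmur001054649 with 2054 and 126.

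The runs of mmur000923 names had another profile. mmur000923889 to mmur000923896 summed to 13081 RPM in spermatogonia, 1587 in primordial germ cells, 1335 in spermatozoa, 2676 in oocytes and 1583 in zygotes. Oocytes were next highest in the sum. Spermatozoa varied within the run, with 23.8 RPM at mmur000923889 and 346 at mmur000923896, where primordial germ cells had 70.8 and 307. The 2 entries numbered just before, mmur000923887 and mmur000923888, had shares of 42.3% and 45.0% and were not members. The 2 numbered just after, mmur000923897 and mmur000923898, were more abundant and not members either, each at 44.5%. They had 6909 and 6914 RPM in spermatogonia, 3714 and 3715 in spermatozoa, and 4327 and 4328 in oocytes. mmur000923914 to mmur000923925 summed to 5052 RPM in spermatogonia, 640 in primordial germ cells, 625 in spermatozoa, 303 in oocytes and 286 in zygotes. In these sums spermatozoa and primordial germ cells were close, but its entries differed. At mmur000923919 primordial germ cells stood at 52.7 RPM and spermatozoa at 22.0, and at mmur000923925 they stood at 104 and 135.

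Among PIR names, PIR25195 and PIR25196 summed to 3866 RPM in spermatogonia, 73.9 in primordial germ cells, 26.3 in spermatozoa, 168 in oocytes and 266 in zygotes. The zygote was next highest, as in PIR77351. PIR25196 had the same reads as PIR83802 in all 5 libraries, with 14149 in spermatogonia, although the numbers lie far apart. In all, 185 of the 3032 members, in 87 groups, shared their reads in all 5 libraries with another member (equal to 2 decimals), which left 2934 distinct profiles. Over all 11444 entries, 1010 in 457 groups shared their reads in this way, so equal reads are not particular to members. PIR4713 to PIR4725, with 13 entries, summed to 3235 RPM in spermatogonia and 380 in zygotes against 125 in primordial germ cells. This run was not among those named by rule. No name of any piRNA entry, member or not, occurred in the endo-siRNA tables.

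The zygote was compared with the oocyte last, because the rule used these only as a mean and left their ratio free. Zygotes had fathers of another strain, so strain and cell type cannot be told apart in this comparison. At least 100 reads over the pair were found for 592 members. A ratio of 4-fold or more in favour of zygotes was found for 5 of these (0.845%), where 5.2% of the 4135 entries with as many reads had one. In favour of oocytes it was found for 8 (1.35%), where 5.03% had one. The members most apart were mmur001255563, with 24.1 reads in oocytes and 145 in zygotes, 9.16-fold higher there [5.93 to 14.8], and PIR1800, with 102 and 12 reads, 5.59-fold lower [3.07 to 11.2]. PIR29362 was among the more abundant ones, with 49.7 RPM in oocytes and 215 in zygotes, a ratio of 4.32 [3.97 to 4.71]. PIR204659 and PIR212203 were each 4.91-fold higher in zygotes [4.20 to 5.75] and had the same reads in every library.

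The kind of name separated these ratios. The median log2 ratio of zygote to oocyte was 0.71 over 227 PIR members, of which 192 lay above 0, and -0.23 over 365 mmur members, of which 152 did. Over all entries with 100 reads in the pair the medians were 0.86 for PIR and -0.42 for mmur names, so members shared a difference seen across the tables. With at least 20 reads over the pair the medians of members were 0.77 over 463 PIR and -0.41 over 1769 mmur entries. With reads scaled to all 4 tables they were 0.11 and -0.83, and with DESeq2 factors 0.87 and -0.07, at 100 reads. For all 592 members together the median was 0.25, which turned to -0.35 with all 4 tables and to -0.27 with a minimum of 20 reads.

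**Figure D5:**
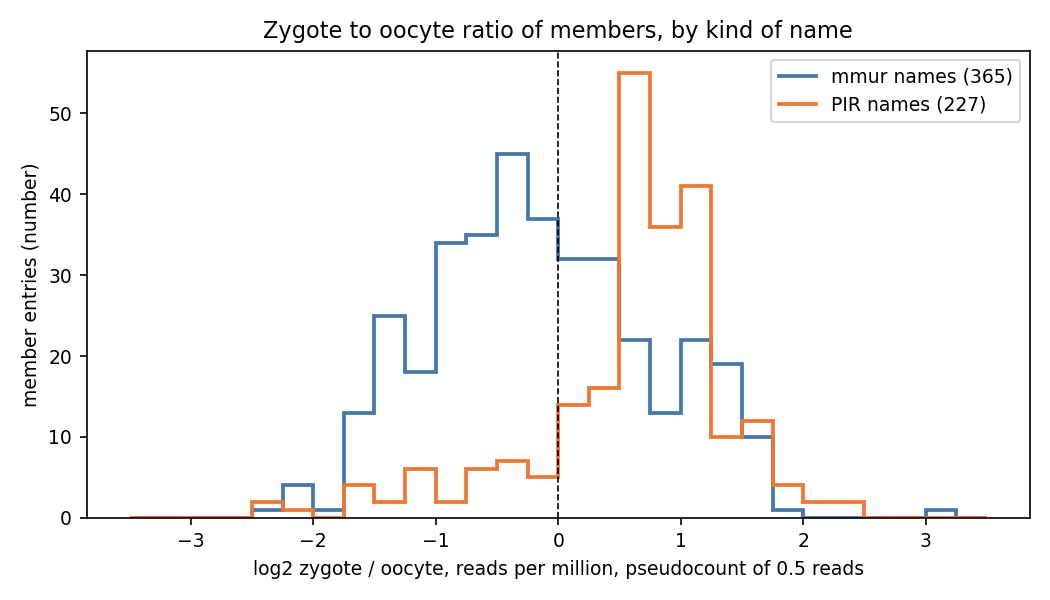
Number of member entries by the log2 ratio of zygote to oocyte (RPM, pseudocount of 0.5 reads), in steps of 0.25, for 365 mmur and 227 PIR members with 100 or more reads over the pair. PIR members lie mostly to the right of 0, with a median of 0.71, and mmur members are spread to both sides of it, with a median of -0.23.

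By table totals, the spermatogonial set had more entries than the sets led by other libraries, and its reads were spread over more of them. Its 12 most abundant entries held 14.4% of its reads in its own library, against 31.9% in the primordial germ cell set, 47.3% in the spermatozoa set and 54.1% in oocytes and zygote set. The set took 22.55% of its own library, where the primordial germ cell set took 18.0%, the spermatozoa set 7.35% and the oocyte and zygote set 29.2% of the 2 egg libraries. The median member had 242 reads over the 5 libraries, and 36 members had at least 10000, against 262 reads in the median entry and 326 such entries over all 11444. No test of these differences was possible with 1 library per cell type. With TMM factors the spermatogonial set had 1353 entries and with DESeq2 factors 570. The sets of the other libraries were not counted again with these factors, so the order of sizes is known only for table totals.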

How the data were processed

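Each of the 5 libraries came with 4 tables (miRNA, snoRNA, piRNA and endo-siRNA entries) of total RNA reads, 18 to 32 nucleotides long by the labels' protocols. The submitters' processing notes name Bowtie 0.12.7, DESeq and the mm10 build, with no role for any of them. The treatment of reads with several matches is not given in the sources used here. The read column holds expected counts as deposited, since many values have fractions. The second value column is a signal, per the file headers a TMM value, equal to reads times 1 deposited factor per library (0.672 in spermatogonia).

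Absent entries were taken as 0 and all values computed with Python 3.11.15, pandas 2.3.3 and scipy 1.17.1. Members and lists were chosen with earlier results of these data known. Named by rule were the 12 members with the highest spermatogonial value, 5 with the highest share and 3 on either side of the threshold (at least 1000 reads), and the 6 name runs with the most reads. Runs of names replaced the planned neighbours by position. edgeR 4.0.16 and DESeq2 1.42.0 gave scaling factors on rounded reads, as alternatives. For the total of all 4 tables, 6 snoRNA rows that name no single RNA were left out (0.161% of that total in spermatogonia). Ratio intervals are exact for 2 Poisson counts, shares have Clopper-Pearson intervals, and PCR copies are not independent molecules. The rule and the error of the share were tested on simulated data.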

Additional observations from a re-analysis of the deposited data

How the results depend on the processing

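The set had 3032 entries by the stated rule. It had 1353 with edgeR TMM factors, 570 with DESeq2 size factors and 1475 with the deposited normalised column, 8925 with a minimum of 20 reads, 31588 with 1 read, 803 with 500 reads, and 959 with a share of at least 80%. All other alternatives tried (all 4 tables, totals without the mitochondrial or the most abundant entries, a share of 50%, oocyte and zygote as separate values, near-equal runs counted once) gave between 2429 and 4170. The share of spermatogonial piRNA reads on members was 20.8% without the 5 most abundant members, 22.6% of a total without mitochondrial entries and 26.2% with near-equal runs counted once. Median log2 ratios of members to primordial germ cells, spermatozoa, oocyte and zygote were, in this order, 2.14, 4.61, 3.52 and 3.54 with a pseudocount of 5 reads, 2.67, 3.56, 3.42 and 4.32 with all 4 tables, 1.95, 3.07, 1.95 and 2.38 with TMM factors, 1.41, 1.98, 1.26 and 1.39 with DESeq2 factors, and 2.11, 2.83, 2.23 and 2.58 with the deposited column. All these medians were above 0, but the lowest was that to oocytes with DESeq2 and TMM factors and that to primordial germ cells in the others. The scalings shift all ratios of a library alike by construction. Primordial germ cells were the next library for 1360 members with TMM factors, 1057 with DESeq2 factors and 1279 with the deposited column. The zygote to oocyte median of members (0.25) turned to -0.35 with all 4 tables and to -0.27 with a minimum of 20 reads over the pair. With that minimum the members were 1769 mmur and 463 PIR entries, with medians of -0.41 and 0.77. At 100 reads they were 365 and 227, with medians of -0.23 and 0.71. The cause of the turn at 20 reads was not tested. Groupings by position, annotation and first base were not run, since positions and sequences of the entries were not used here. No paired analysis was possible because each cell type has 1 library. Depth limits single entries: for 704 members the share less 1.96 SE reached below 60%. Alternatives for the next library, the zygote to oocyte ratio, name kinds and the 12 leading members were added after seeing the data.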

Other observations

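Entries with a mitochondrial mark in the name were left out of the set by its rule. Of 1338 such entries 94 had at least 100 reads over the 5 libraries, and 26 of these had a spermatogonial value of at least 60%. They held 5423 reads in spermatogonia. The first, mmur000687509chrM, had 947 reads in spermatogonia, 72.9 in primordial germ cells, 77.1 in spermatozoa, 33.5 in oocytes and 22.1 in zygotes. All entries with this mark together took 0.214% of piRNA reads in spermatogonia, 0.172% in primordial germ cells, 0.166% in spermatozoa, 0.0879% in oocytes and 0.113% in zygotes, so they were a small part of each table.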
